A study of Mus musculus with 4 samples.

Results

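The keratin genes were taken as every gene name made of Krt, a number and at most 1 further letter, so that keratin-associated protein genes were left out. This gave 52 genes of 24319 gene names in the series. RNA was sequenced from whole dissected tissue of males as 4 libraries, from 2 normal prostates and 2 prostate tumours, all on a mixed C57BL/6 and FVB background (strain label C57BL/6:FVB). The normal prostates were WT and 22 weeks old. The tumours were labelled late stage at 24 weeks, with 24 to 28 weeks in the protocol, and carried the SV40 T antigen transgene of the TRAMP model in the heterozygous state. The rat probasin promoter drives that transgene in prostate epithelium, and no group had the promoter without the oncogene. Each normal library came from a single mouse's prostate, whereas the labels leave unsaid whether the 2 tumours are from separate mice. The p-values therefore reflect only how these samples vary, which may be technical. Tumour and normal differ in age label as well as in genotype, and these cannot be told apart.

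Keratins are the intermediate filament proteins of epithelial cells. A filament is built from pairs of 1 acidic type I chain and 1 basic type II chain, so the genes are usually expressed in partner pairs, such as Krt8 with Krt18 in simple epithelia and Krt5 with Krt14 in basal cells. In prostate, Krt8 and Krt18 mark luminal secretory cells and Krt5 and Krt14 mark basal cells, and loss or exchange of keratins is used by pathologists to classify tumours. In the mouse the type I genes lie in a cluster on chromosome 11 and the type II genes in a cluster on chromosome 15, with Krt18 as the type I gene at the edge of the type II cluster. Of the 52 genes, 28 were type I and 24 type II, and 27 lay on chromosome 11 and 25 on chromosome 15.

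Values are given as FPKM (fragments per kilobase of transcript, relative to all mapped fragments) divided by a scaling factor per library, called scaled FPKM below. This scaling lowers tumour values against normal ones by 0.94 on the log2 scale, compared with FPKM as deposited, so a tumour to normal ratio near 1 depends on it. Ratios between keratins within 1 library do not. The libraries held 986717 and 1580686 implied fragments (normal 1 and normal 2) and 1435619 and 1143599 (tumour 1 and tumour 2), fragments being implied by the width of the deposited confidence interval. Tumour 1 stood apart from the other 3 libraries in epithelial genes beyond the keratins. Its summed scaled FPKM over 14 luminal markers other than keratins was 662, against 2037 and 2441 in the normal prostates and 1370 in tumour 2, with 7 of the 14 listed at 0, among them Cdh1. Each group result below therefore stands beside the values of the single tumours. In whole tissue, fewer cells of a type and less RNA per cell cannot be told apart.

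The promoters of 5 keratins are shown because their levels carry the results: the partner pair Krt8 and Krt18, the 2 simple epithelial genes high in tumour 2 (Krt7 and Krt20), and the basal gene Krt5. Each sequence is the 150 bases just before the RefSeq start site on the gene's own strand, from RefSeq on GRCm38.p6. Capitals mark matches to any of the 7 motifs searched on both strands. The windows are chr15:102004343-102004492 (minus strand) for Krt8, chr15:102028066-102028215 (plus) for Krt18, chr15:101412253-101412402 (plus) for Krt7, chr11:99438154-99438303 (minus) for Krt20 and chr15:101712906-101713055 (minus) for Krt5.
Krt8: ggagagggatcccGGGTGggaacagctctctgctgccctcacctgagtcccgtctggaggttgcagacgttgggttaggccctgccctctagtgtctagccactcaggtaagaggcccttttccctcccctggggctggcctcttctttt
Krt18: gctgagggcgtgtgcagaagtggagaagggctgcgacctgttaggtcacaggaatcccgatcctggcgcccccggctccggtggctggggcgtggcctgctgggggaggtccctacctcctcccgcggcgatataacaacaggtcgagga
Krt7: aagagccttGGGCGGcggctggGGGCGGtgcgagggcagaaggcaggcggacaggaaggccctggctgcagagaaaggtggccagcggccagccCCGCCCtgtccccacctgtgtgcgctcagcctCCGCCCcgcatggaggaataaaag
Krt20: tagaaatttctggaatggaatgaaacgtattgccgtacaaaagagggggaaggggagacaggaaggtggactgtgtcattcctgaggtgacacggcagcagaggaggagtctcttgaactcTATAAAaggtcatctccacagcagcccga
Krt5: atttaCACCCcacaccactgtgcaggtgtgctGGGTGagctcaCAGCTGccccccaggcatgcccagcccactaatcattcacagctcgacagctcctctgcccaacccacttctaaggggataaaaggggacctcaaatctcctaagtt
The Krt7 window held 4 matches to the GC box GGGCGG and had a GC content of 70.0%, against a median of 54.0% over 32843 windows of all genes. The Krt20 window held TATAAA at 29 to 24 bases before the start and had a GC content of 49.3%. Krt7, Krt8, Krt18 and Krt5 had no TATAAA in their windows. The KLF motif CACCC was found once in Krt8 and 2 times in Krt5, which also held CAGCTG, the E-box bound by proneural factors. The AP-1 motif TGANTCA, the forkhead motif TGTTTAC and the grainyhead motif AACNNGTT had no match in these 5 windows. No 2 matches overlapped in these windows. The share of all windows with a match was 7.58% for TATAAA, 28.6% for GGGCGG, 37.4% for CACCC, 8.39% for CAGCTG, 4.24% for TGANTCA, 1.80% for TGTTTAC and 1.98% for AACNNGTT. RefSeq windows were matched for 35 keratins, 36 windows in all, of which 15 held TATAAA and 2 held GGGCGG. Krt4, Krt15, Krt17 and Krt19 had no window in that table.

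Most keratins were silent or nearly so in all 4 libraries. Of the 52, 29 were listed at 0 everywhere, 10 more never reached an FPKM of 1, and 13 reached it in at least 1 library. The highest of the 10 was Krt1, a keratin of the upper epidermis, at an FPKM of 0.987 in normal 1. In each normal prostate 11 keratins had an FPKM of 1 or more, in tumour 1 only Krt10 and Krt17 did, and in tumour 2 all 13 did. The 12 genes with an FPKM of at least 1 in at least 2 libraries were tested. All 12 were at 1 or more in tumour 2, and 10 of them in both normal prostates. Just inside that limit, Krt79 reached 1.15 in normal 2 and 3.47 in tumour 2 as deposited. Just outside it, Krt20 was at 241 in tumour 2 alone.

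Of the 12 tested keratins, 1 fell in the tumours (Krt5), 0 rose and 11 did not pass (limma, Benjamini-Hochberg adjusted over 13162 genes). Over all genes tested 8.27% were called lower and 9.85% higher, so 1 of 12 is near the background. At an unadjusted p under 0.05 limma had 2, Krt5 and Krt14, both lower, and voom on implied fragments called 0 and had 4. The median log2 fold change of the 12 was -1.86, against 0.07 over all genes tested. That median joins 2 unlike tumours, at -3.75 in tumour 1 and 0.44 in tumour 2, where all genes tested had 0.10 and 0.08.

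The simple epithelial keratins Krt8, Krt18 and Krt19 were the most abundant in normal prostate. Krt18, the type I partner of Krt8 (chromosome 15, 102028216 to 102032026), was at 445 and 527 scaled FPKM in the normal prostates, 0.345 in tumour 1 and 255 in tumour 2. Krt8 (chromosome 15, 101996711 to 102004342, 23874 bases from Krt18) had scaled FPKM of 178 in normal 1, 191 in normal 2, 0.258 in tumour 1 and 438 in tumour 2. Krt19, a type I keratin of simple and glandular epithelia (chromosome 11, 100140811 to 100145919), had 365 and 354 in the normal prostates, 0.705 in tumour 1 and 383 in tumour 2. All 3 were nearly absent from tumour 1, and tumour 2 was above the normal prostates for Krt8, below them for Krt18 and close to them for Krt19.

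In tumour 1 the 3 genes rested on 1 implied fragment for Krt8, 1 for Krt18 and 2 for Krt19. The normal mean of scaled FPKM exceeded the tumour 1 value by a ratio of 1410 for Krt18 (95% counting interval 253 to 55698), 716 for Krt8 (128 to 28264) and 509 for Krt19 (141 to 4195). These intervals cover the counting error of the tumour 1 value only, and fragments without molecular identifiers are not independent molecules. The log2 fold changes over both tumours were -2.98 for Krt8 (SE 2.72, adjusted p = 0.451), -4.71 for Krt18 (SE 2.44, adjusted p = 0.213) and -3.82 for Krt19 (SE 2.52, adjusted p = 0.307). The SEs are large because the 2 tumours lay 8.45 (Krt8), 7.57 (Krt18) and 7.81 (Krt19) apart on the log2 scale, while the normal prostates differed by 0.10, 0.24 and 0.04 in size.

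Against the normal mean, tumour 2 had 2.38 times the scaled FPKM of Krt8, 0.524 times that of Krt18 and 1.07 times that of Krt19. As deposited, the ratios were 4.83, 1.07 and 2.16, so the direction of Krt18 in tumour 2 turned with the scaling and that of Krt8 did not. Fitted with tumour 2 as the lone tumour, Krt8 had a log2 fold change of 1.32 and Krt18 one of -0.85. Such a fit assumes that the tumour varies like the normal prostates, so only effect sizes are given for a lone tumour.

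**Figure D1:**
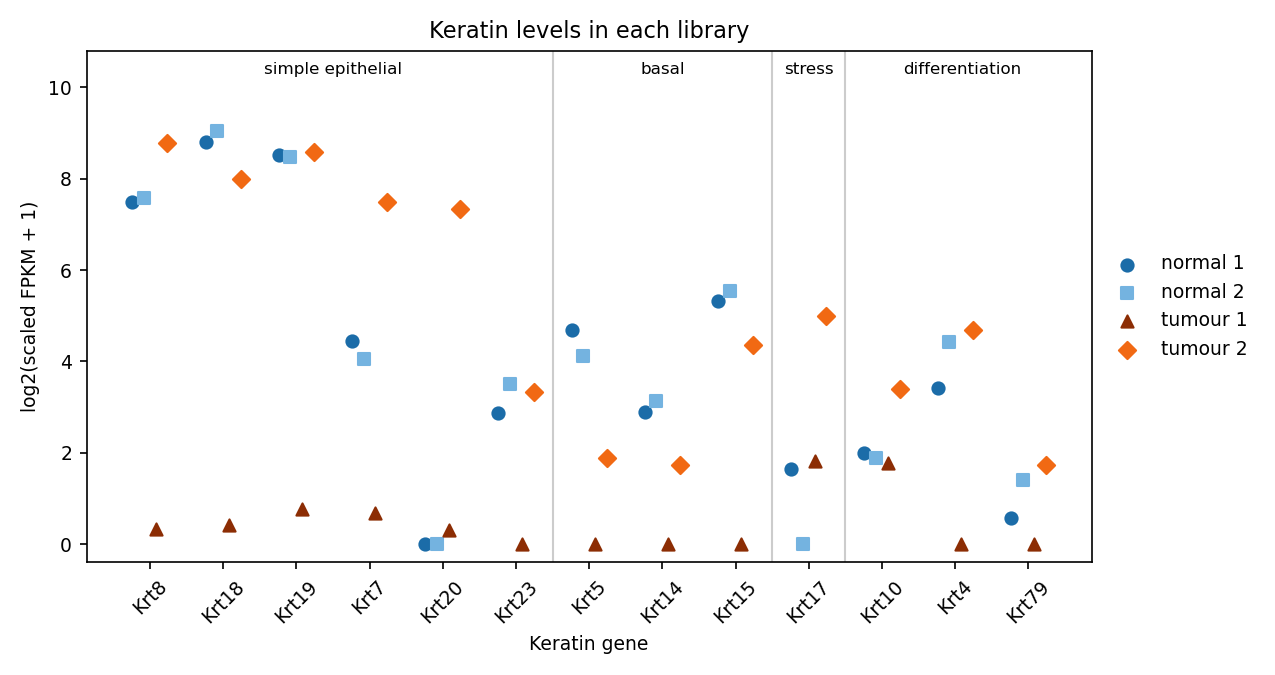
Level of each of the 13 keratins with an FPKM of at least 1 in any library, as log2(scaled FPKM + 1) on the vertical axis, 1 point per library (circle and square for the normal prostates, triangle and diamond for the tumours). Tumour 1 sits near 0 for all but Krt17 and Krt10, and tumour 2 sits above both normal prostates for Krt8, Krt19, Krt7, Krt20, Krt17, Krt10, Krt4 and Krt79 and below them for Krt18, Krt5, Krt14 and Krt15.

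Krt7 and Krt20 set tumour 2 apart. Krt7, a type II keratin of ducts and urothelium (chromosome 15, 101412403 to 101427806), was at 20.9 and 15.5 scaled FPKM in the normal prostates, 0.597 in tumour 1 and 178 in tumour 2. Tumour 2 was thus 9.80 times the normal mean (19.7 times as deposited), and tumour 1 was below it by a ratio of 30.4 (counting interval 8.40 to 251, from 2 implied fragments). The groups overlapped, and the log2 fold change was -0.17 (SE 2.21, adjusted p = 0.961). With tumour 2 as the lone tumour it was 3.31, and with tumour 1 as the lone tumour -3.46. In the latter fit Krt7 passed the filter through the normal prostates alone, so its direction was fixed.

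Krt20, a type I keratin of intestinal epithelium, urothelial surface cells and Merkel cells (chromosome 11, 99428403 to 99438153), gave no fragment in either normal prostate. It had 1 implied fragment in tumour 1 (0.239 scaled FPKM) and 555 in tumour 2 (160.2 scaled FPKM). Taking 3 fragments per library as the limit for a gene listed at 0, which is at most 1.66 scaled FPKM in the normal prostates, tumour 2 was at least 96.5-fold higher. Krt20 could not pass the filter, since 1 library held nearly all of it. Where a filter on the mean over all 4 libraries let it in, its log2 fold change of 3.82 had an adjusted p of 0.278. Krt23, a type I keratin of glandular epithelia, had 6.27 and 10.4 scaled FPKM in normal prostate, was listed at 0 in tumour 1 and had 9.09 in tumour 2, inside the normal range (adjusted p = 0.370).

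The 3 basal keratins had less RNA in each tumour than in either normal prostate. Krt5, the type II keratin of basal cells (chromosome 15, 101707070 to 101712891), was at 24.8 and 16.3 scaled FPKM in normal prostate, listed at 0 in tumour 1 and at 2.69 in tumour 2. Krt5 fell by 3.46 in log2 terms (limma SE 0.74, adjusted p = 0.0414) and was the only keratin called. The implied fragments behind it numbered 53 in normal 1, 51 in normal 2, 0 in tumour 1 and 11 in tumour 2. In tumour 1 it was at least 32.8-fold lower than the normal mean, from the 3-fragment limit.

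The other basal genes showed the same order without passing. Krt14, the type I partner of Krt5 (chromosome 11, 100203162 to 100207510), had 6.39 and 7.78 scaled FPKM in normal prostate, 0 as listed in tumour 1 and 2.33 in tumour 2 (log2 fold change -2.14, SE 0.68, adjusted p = 0.0869). Krt15, a type I keratin of basal and progenitor cells (chromosome 11, 100131759 to 100135949), had 39.3 and 45.7 in normal prostate, 0 as listed in tumour 1 and 19.5 in tumour 2 (log2 fold change -3.26, SE 1.44, adjusted p = 0.161). In tumour 1 they were at least 8.32-fold (Krt14) and 52.0-fold (Krt15) below the normal mean, while in tumour 2 they were at 0.329 and 0.460 times it (0.673 and 0.938 as deposited).

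The call of Krt5 was kept in 3 of 8 alternatives in scaling, filter or tool, with adjusted p between 0.0337 and 0.111, and its sign in all 12 alternatives run. It was lost without normal 1 (adjusted p = 0.216) and without normal 2 (adjusted p = 0.202), fits in which 0 genes of the whole table were called. With tumour 2 as the lone tumour, Krt5 had a log2 fold change of -2.43. With tumour 1 as the lone tumour, Krt5 passed the filter through the normal prostates alone, so its sign there was fixed.

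Krt17, a type I keratin induced in wounded and stressed epithelium (chromosome 11, 100256217 to 100260989), was the only tested keratin with more scaled FPKM in each tumour than in either normal prostate. It had 2.13 scaled FPKM in normal 1, was listed at 0 in normal 2, and had 2.52 in tumour 1 and 31.0 in tumour 2. With FPKM as deposited Krt10 was too, at 2.34 in normal 1, 1.84 in normal 2, 3.23 in tumour 1 and 14.3 in tumour 2. For Krt17 the margin in tumour 1 was small and rested on 8 implied fragments against 3 in normal 1, and the log2 fold change of 2.58 did not pass (SE 1.21, adjusted p = 0.180). With tumour 2 as the lone tumour it was 4.16. The other wound keratins stayed near 0: Krt6b and Krt16 were listed at 0 in all 4 libraries, and Krt6a never exceeded an FPKM of 0.355. Krt14, Krt16 and Krt17, and Krt6a and Krt6b, are close paralogs, so fragments may be divided between them with error.

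Among keratins of differentiating stratified epithelium, 3 of 13 were tested and 0 passed (limma, 0 at an unadjusted p under 0.05). Krt10, the type I keratin of suprabasal epidermis (chromosome 11, 99385256 to 99389364), had 2.96 and 2.67 scaled FPKM in normal prostate, 2.40 in tumour 1 and 9.52 in tumour 2 (adjusted p = 0.492). Of the 12 tested, Krt10 lay nearest its normal mean in tumour 1 (-0.16 on the log2 scale), resting on 11 implied fragments there, against 6 and 8 in the normal prostates. Genes on the opposite strand overlap Krt10 (Gm11940), Krt5 (Gm44323), Krt7 (Gm671) and Krt8 (Gm36026) in GENCODE M21, so reads of each pair cannot be told apart without strand, and whether the counting used strand was not stated. Krt4, the type II keratin of internal stratified epithelium (chromosome 15, 101918535 to 101924735), had 9.64 and 20.6 in normal prostate, 0 as listed in tumour 1 and 24.9 in tumour 2 (adjusted p = 0.493). Krt79, a type II keratin known from hair follicle ducts, had 0.491, 1.66, 0 as listed and 2.31 (adjusted p = 0.901), too few fragments to place the groups. The partners of Krt10 and Krt4 were not found with them: Krt2 and Krt13 were listed at 0 everywhere, and Krt1 stayed under an FPKM of 1. Of 15 hair shaft keratins 2 were above 0 in any library, at most 0.944 (Krt31), and of 9 inner root sheath and companion layer keratins 2 were, at most 0.749 (Krt73). The deposited interval of Krt85, 1 of the hair shaft genes above 0, spans other hair keratins, so its value is uncertain. The remaining 2 genes, Krt42 and Krt222, were at 0 everywhere and at most at 0.577.

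The make-up of the keratin pool within a library does not depend on scaling between libraries. The 52 genes summed to 874 and 823 FPKM in the normal prostates, 10.2 in tumour 1 and 2282 in tumour 2. This was 0.0989% and 0.0979% of all FPKM in the normal prostates, 0.00198% in tumour 1 and 0.414% in tumour 2. As scaled FPKM the sums were 1102, 1195, 7.58 and 1518 in normal 1, normal 2, tumour 1 and tumour 2. In implied fragments the keratins held 1510, 2426, 27 and 4357. The 2 normal prostates had nearly the same make-up: Krt18 held 40.4% and 44.1%, Krt19 33.1% and 29.6%, Krt8 16.1% and 16.0%, and the 3 basal genes together 6.39% and 5.84%.

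Tumour 2 kept simple epithelial keratins as 93.7% of its keratin FPKM, against 92.1% and 91.9% in the normal prostates, but with the members in other proportions. Krt8 held 28.9%, Krt19 25.2%, Krt18 16.8%, Krt7 11.7% and Krt20 10.6%, with 1.62% for the basal genes. In tumour 1 the 27 fragments came mostly from Krt17 (33.3% of keratin FPKM) and Krt10 (31.7%), and simple epithelial genes held 28.3%.

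**Figure D2:**
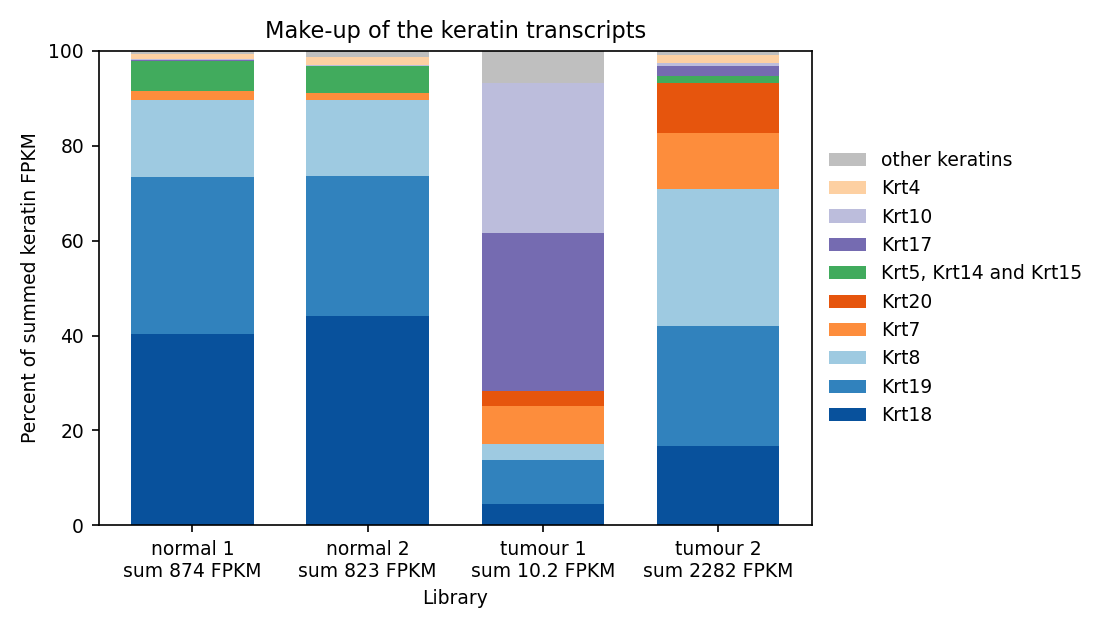
Percent of the summed keratin FPKM (vertical axis, 0 to 100) held by each keratin in each of the 4 libraries, stacked, with the sum in FPKM under each bar. Krt18 is the largest part in both normal prostates (40.4% and 44.1%), Krt8 in tumour 2 (28.9%), and Krt17 and Krt10 in tumour 1, whose bar rests on 27 implied fragments.

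The ratio of the luminal partners differed as well. The FPKM of Krt8 over Krt18 was 0.399 in normal 1 (95% exact binomial counting interval 0.346 to 0.460) and 0.363 in normal 2 (0.324 to 0.405), but 1.72 in tumour 2 (1.56 to 1.89). Tumour 1 had 1 fragment of each gene, which gives no usable ratio (0.00952 to 58.7). The ratio of the basal partners, Krt5 over Krt14, was 3.89 (1.96 to 8.57) in normal 1, 2.098 (1.21 to 3.82) in normal 2 and 1.15 (0.408 to 3.51) in tumour 2, intervals that overlap. Type II keratins together held 21.4% and 20.6% of keratin FPKM in the normal prostates and 42.7% in tumour 2. Krt7 over Krt8 was 0.117 (0.0783 to 0.170) and 0.0810 (0.0551 to 0.115) in the normal prostates and 0.406 (0.366 to 0.450) in tumour 2. These intervals cover counting error within a library. The ratios were not tested over samples, because with 2 libraries in each group no exact permutation p can reach 0.05.

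Ratios of basal to luminal keratins depended on the pair. Krt5 over Krt8 was 0.140 (0.102 to 0.188) in normal 1, 0.0854 (0.0627 to 0.114) in normal 2 and 0.00614 (0.00306 to 0.0110) in tumour 2. Krt15 over Krt18 was 0.0882 (0.0665 to 0.115), 0.0866 (0.0705 to 0.106) and 0.0767 (0.0577 to 0.1002) in the same libraries, with overlapping intervals. Within the basal genes, Krt5 over Krt15 was 0.632 (0.429 to 0.929) and 0.358 (0.251 to 0.503) in the normal prostates and 0.138 (0.0652 to 0.265) in tumour 2, an interval that meets that of normal 2. Krt17 over Krt5 was 0.0860 (0.0172 to 0.265) in normal 1 and 11.5 (6.12 to 24.0) in tumour 2, so Krt17 exceeded Krt5 there although Krt5 was the more abundant in normal prostate.

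Library by library, 9 of the 12 tested keratins were at least 4-fold lower in tumour 1 than the normal mean on the log2(scaled FPKM + 1) scale, where 13.5% of all genes tested were. The 3 that were not are Krt10, Krt17 and Krt79. At least 4-fold higher in tumour 1 were 0 of 12, against 12.9% of all genes. In tumour 2, 2 of 12 were at least 4-fold higher (Krt7 and Krt17; 9.28% of all genes) and 1 at least 4-fold lower (Krt5; 5.43%). Tumour 2 was at least 4-fold above tumour 1 in 8 of 12, against 7.45% of all genes. Tumour 1 was at least 4-fold above tumour 2 in 0 of 12 (1.41% of all genes). The normal prostates were at least 4-fold apart in 0 of 12 (0.942% of all genes). Each tumour is 1 library, so these counts describe libraries and carry no test. The groups did not overlap for 5 of the 12: Krt17 higher (37.7% of all genes were higher without overlap) and Krt5, Krt14, Krt15 and Krt18 lower (33.3%), shares near or under the background.

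**Figure D3:**
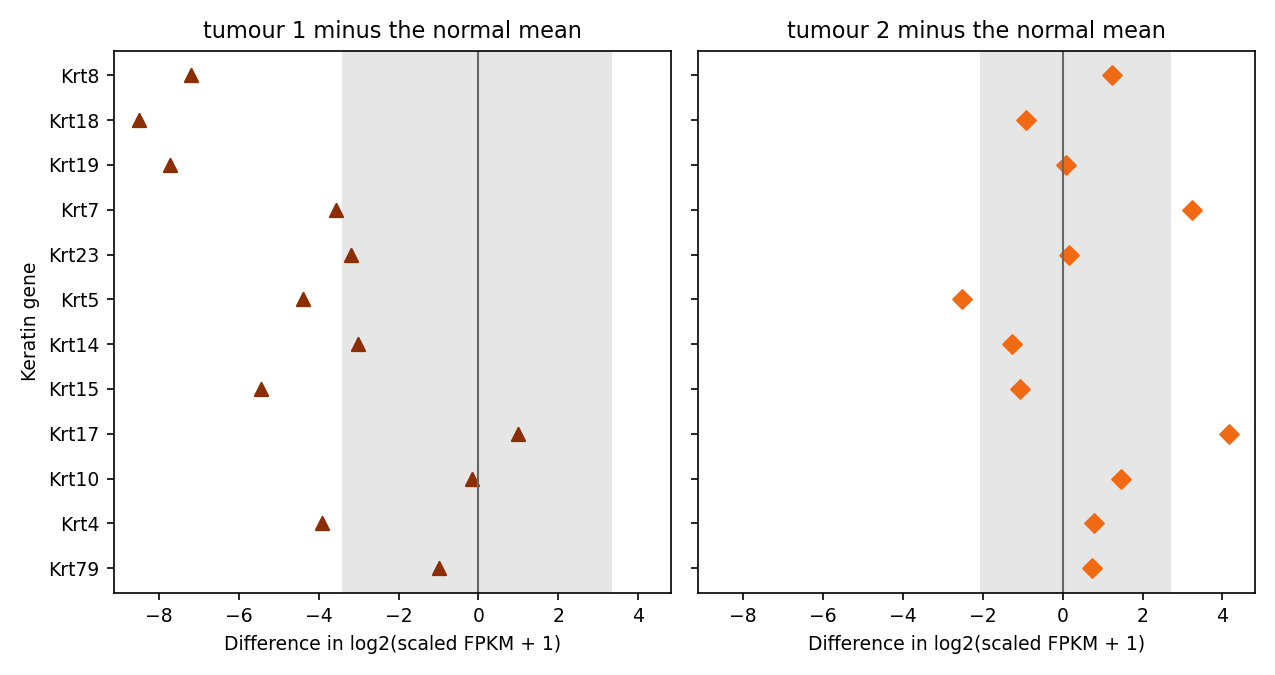
Difference of tumour 1 (left) and tumour 2 (right) from the mean of the 2 normal prostates in log2(scaled FPKM + 1), horizontal axis, for the 12 tested keratins, with the range from the 5th to the 95th percentile of all 13162 genes tested in grey. In tumour 1, Krt18, Krt19, Krt8, Krt15, Krt5, Krt4 and Krt7 lie below the grey range, and in tumour 2 Krt17 and Krt7 lie above it and Krt5 below.

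Genes that anchor keratins to cell junctions were also low in tumour 1. Of 15 desmosome genes 9 were tested, 1 fell (Perp), 0 rose and 8 did not pass, where 8.27% of all genes tested were called lower and 9.85% higher. Dsp, the desmoplakin that binds keratin filaments, had 13.9 and 13.1 scaled FPKM in normal prostate, was listed at 0 in tumour 1 and had 10.6 in tumour 2 (adjusted p = 0.251). Pkp3, a plakophilin, had 21.2 and 23.4, then 0 as listed and 8.30 (adjusted p = 0.118). Jup, the plakoglobin shared with adherens junctions, had 27.7 and 30.2 in normal prostate, 26.3 in tumour 1 and 36.6 in tumour 2 (adjusted p = 0.828), while 7 of the 9 tested were at least 4-fold lower in tumour 1 (13.5% of all genes). Perp, a desmosomal p53 target, fell by 5.28 in log2 terms (adjusted p = 0.0446), a call lost in 6 of the 8 alternatives in scaling, filter or tool. Of 7 tested hemidesmosome genes limma called 0, with 2 at an unadjusted p under 0.05.

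Regulators of the epithelial programme had 0 calls among 14 tested of 17, with a median log2 fold change of -1.54 and 4 at an unadjusted p under 0.05. Ehf, an ETS factor of glandular epithelium, had 114 and 122 scaled FPKM in normal prostate, was listed at 0 in tumour 1 and had 58.0 in tumour 2 (adjusted p = 0.188). Esrp1, the epithelial splicing regulator, had 73.4 and 57.7, then 0 as listed and 25.3 (adjusted p = 0.146). Trp63, the p53 family factor that maintains basal cells and Krt5 and Krt14 expression, was low at 2.33 and 1.29 in normal prostate and listed at 0 in both tumours, so it could not be tested as an FPKM of 1 was reached in 1 library only. Sox2 was at 3.72, 1.12, 2.75 and 24.4, high in tumour 2 alone (adjusted p = 0.292). Of 8 tested keratin partners and regulators 1 rose and 2 fell: Ywhae, a 14-3-3 protein, rose 2.24-fold (adjusted p = 0.0397), Krtcap2, a subunit of the oligosaccharyl transferase, was lower at 0.331 of normal (adjusted p = 0.0420) and Krtcap3 at 0.219 (adjusted p = 0.0446). Of the 8 alternatives in scaling, filter or tool, the call was lost in 5 for Krtcap2, in 7 for Krtcap3 and in 2 for Ywhae. Over all genes tested 9.85% were called higher and 8.27% lower.

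Intermediate filament genes of other cell types were mostly higher in both tumours. Of 14 tested filament genes outside the keratins 7 rose, 1 fell and 6 did not pass, where 9.85% of all genes tested were called higher and 8.27% lower. Of the 7, 5 (Nefl, Ina, Nefm, Nefh and Nes) were under an FPKM of 1 in both normal prostates, so the filter on low values fixed their direction and the count is no support for a rise. Nefl, the light neurofilament chain, stood at a listed 0 in either normal prostate and had 26.9 and 23.8 scaled FPKM in the tumours (adjusted p = 0.0195). Ina, the neuronal filament alpha-internexin, was likewise listed at 0 and had 20.7 and 12.1 (adjusted p = 0.0195). Lmnb1, a nuclear lamin, rose 12.0-fold (adjusted p = 0.0219). Nefm, the medium neurofilament chain, had 0.615 and 0 as listed in normal prostate and 13.4 and 13.3 in the tumours (adjusted p = 0.0213). Synm, the muscle filament synemin, fell by 3.05 in log2 terms (adjusted p = 0.0312), a call lost in 3 of the 8 alternatives in scaling, filter or tool. Vim, the mesenchymal filament vimentin, had 11.4 and 12.0 in normal prostate and 32.1 and 98.0 in the tumours without passing (adjusted p = 0.0607).

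Some cornified envelope genes, products of terminal squamous differentiation, were seen in tumour 2 and not in the other libraries. Of 12 genes in the files, 5 were listed at 0 in tumour 2, against 10, 8 and 11 in normal 1, normal 2 and tumour 1. Sprr1a was at 22.7 scaled FPKM in tumour 2 and listed at 0 in the other libraries, and Ivl (2.68) and Krtdap (3.82) were likewise above 0 in tumour 2 alone. The summed scaled FPKM of the list was 1.60, 10.5, 1.56 and 47.3 in normal 1, normal 2, tumour 1 and tumour 2. Only 2 of the 12 could be tested, and 0 passed (limma). The 1 with an unadjusted p under 0.05 was lower in both tumours: Tgm1, a transglutaminase that cross-links the envelope, had 1.46 and 1.48 in normal prostate, 0 as listed in tumour 1 and 0.381 in tumour 2 (adjusted p = 0.0923). It passed the filter through the normal prostates alone.

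**Figure D4:**
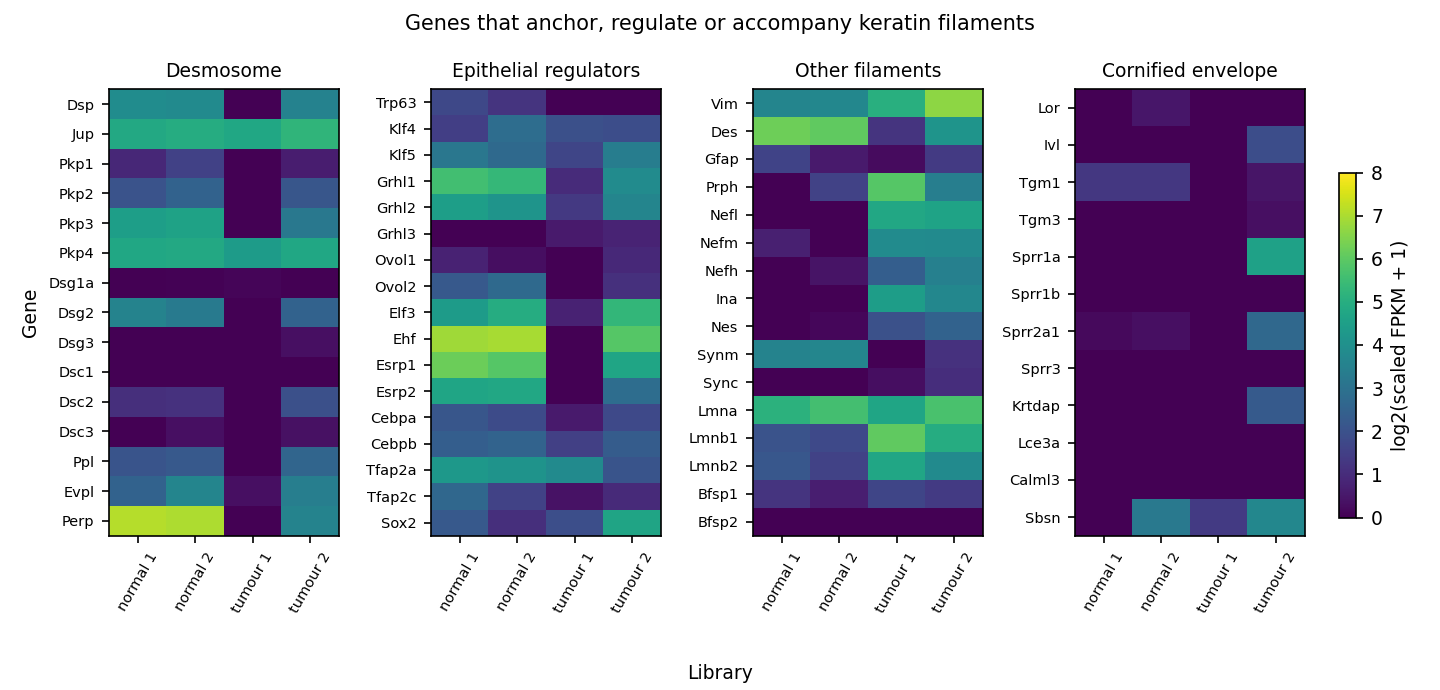
Level of each gene in 4 lists, as colour on the log2(scaled FPKM + 1) scale from 0 to 8, with libraries on the horizontal axis and genes on the vertical. Tumour 1 is near 0 for Dsp, Pkp3, Ehf and Esrp1 but not for Jup or Pkp4, both tumours carry Nefl and Ina, and Sprr1a is seen in tumour 2 alone.

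Markers of other cell types are given beside these values, and their part in the keratin results was not tested. The 10 neuroendocrine markers were all tested and all 10 rose (lowest adjusted p for Scg5 and Ddc), with a summed scaled FPKM of 1.47 and 0.914 in the normal prostates, 871 in tumour 1 and 1154 in tumour 2, so both tumours were high, tumour 1 with keratins near absent and tumour 2 with keratins abundant. All 10 were under an FPKM of 1 in both normal prostates and entered the test through the tumours, so their direction was fixed by the filter. Among all genes tested 9.85% were called higher and 8.27% lower, shares that apply to each marker list here. Among 8 urothelial markers, which include Krt20, 0 of 4 tested passed (limma, 2 at an unadjusted p under 0.05). Upk1a was at 334 and 470 in normal prostate and 0.373 and 33.4 in the tumours. Upk1b was at 31.5 and 20.5 in normal prostate, 0 as listed in tumour 1 and 9.93 in tumour 2, and Upk2 at 1.39, 1.88, 0 as listed and 3.62. Upk3a and Upk3b, the latter also a mesothelial marker, were listed at 0 everywhere except in tumour 2, at 0.538 and 0.795, beside Krt20 at 160.2. All 7 seminal vesicle markers were listed at 0 in all 4 libraries. The 11 basal markers other than keratins summed to 62.0 and 61.5 in normal prostate, 35.9 in tumour 1 and 56.8 in tumour 2, with 1 called higher (Jag2) and 1 lower (Snai2, lost in 3 of the 8 alternatives and measured above 0 in the normal prostates alone). Fibroblast markers summed to 123, 99.0, 50.4 and 376, where the lower sum in tumour 1 came from Dcn (104 and 84.2 in normal prostate, 5.45 in tumour 1) and the median log2 difference of the 5 tested members there was 1.31. Smooth muscle markers, of which Myh11 was called lower (a call lost in 5 of the 8 alternatives), summed to 634, 589, 4.19 and 114 scaled FPKM in normal 1, normal 2, tumour 1 and tumour 2. The 5 macrophage markers summed to 7.07, 10.97, 110.2 and 254, with Lyz2 and Cd68 called higher (Cd68 through the tumours alone), while Csf1r, Adgre1 and Cd14 lay at -0.74, -0.36 and -1.16 from the normal mean on the log2 scale in tumour 1, and the 5 endothelial ones to 7.21, 3.81, 1.51 and 25.0. Of 4 mesothelial markers and 11 of epidermis and hair follicle, the sums were at most 1.37 and 18.5, both in tumour 2.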

How the data were processed

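RNA of 2 normal mouse prostates and 2 TRAMP tumours was sequenced after TRI Reagent extraction and TruSeq library preparation on a NextSeq 500, per the labels' protocols. Per the submitters' processing notes, the build was GRCm38 (mm10) and the tools included TopHat2 2.0.8, Trim Galore, Cuffdiff 2.1.1 and Cufflinks 2.1.1. The authors deposited FPKM with confidence bounds for each gene, 1 table per library. Nothing used here states the annotation, the alignment settings or any scaling across libraries. Positions are the deposited ones counted from 1, and 50 of 52 keratins overlapped a GENCODE M21 gene of the same name.

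From there, the 27 rows whose names had become dates were left out and rows were summed by name; no keratin had more than 1 row. FPKM were divided by median-of-ratios factors (0.793, 0.689, 1.34 and 1.50) over 11469 genes above 0 in all libraries. Genes with FPKM of at least 1 in at least 2 libraries (13162) were tested on log2(scaled FPKM + 1) with limma 3.58.1 in R 4.3.3, two-sided, with an intensity trend and Benjamini-Hochberg adjustment, threshold 0.05, residual degrees of freedom 2 and prior 2.85. Fold changes on this scale understate those of low genes. Fragments behind a value were implied by its interval, taken as 2 Poisson standard deviations on each side; 71.0 to 72.5% of low values lay within 0.1 of a whole number, where 20% would by chance. The fit was tested on simulated data. Ratios and shares came from Python 3.11.15 with pandas 2.3.3 and scipy 1.17.1.

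Every keratin with an FPKM of at least 1 in any library was named, and of each other list up to 4 members past the threshold by lowest adjusted p and those a result turned on. Other genes named from those lists were chosen after their values were seen. Members and lists were chosen with earlier results of these data known. Alternatives covered scaling, pseudocount, filter, trend, voom on implied fragments and leaving out each library.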

Additional observations from a re-analysis of the deposited data

How the results depend on the processing

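Over 142 repeats of the 12 keratin tests, 111 kept direction and side of the threshold, 7 lost a call and 12 turned direction. Another 12 crossed the threshold in the same direction. All of these were fits with a lone tumour, which assume that it varies like the normal prostates, so they are no support. No alternative in scaling, filter or tool gained a call. Krt5 alone was called lower over all 4 libraries, and 0 keratins were called lower with FPKM as deposited, under scaling by each library's FPKM total less the genes above 1% of it, with a pseudocount of 0.1, without a filter or by voom. Over all genes, 3681 were called higher and 427 lower as deposited, 2537 and 554 with the sum scaling, and 245 and 249 without a filter (where 5283 had an unadjusted p under 0.05). With 1 library left out in turn, all genes called higher ranged from 0 to 2170 and lower from 0 to 3405, and keratins called higher from 0 to 4 and lower from 0 to 9. The counts of 0 came without normal 1 or normal 2, where limma left 2434 and 2354 genes at an unadjusted p under 0.05. Without tumour 1, 2251 genes were lower, and 4 keratins higher and 3 lower; without tumour 2, 0 keratins were higher and 9 lower. The keratins called lower without tumour 2 were all under an FPKM of 1 in tumour 1. They passed the filter through the normal prostates alone, so their direction was fixed. Neither their count nor the calls gained there are support for a fall. Without tumour 1 the genes tested were 11271, 12 of them keratins, and without tumour 2 they were 11043, 11 of them keratins. Because each of these fits leaves 1 tumour, the keratin counts from them are not read against those of all genes. Krt7 turned from -0.17 to 0.62 as deposited, 0.37 with the sum scaling and 0.052 under quantile normalization, and Krt79 from -0.13 to 0.29 and 0.14 under the first 2. With each library left out in turn, log2 fold changes that turned ranged from -0.14 to 1.51 for Krt10, -7.61 to 0.17 for Krt19, -3.03 to 0.22 for Krt23, -3.76 to 0.84 for Krt4, -3.46 to 3.31 for Krt7, -0.62 to 0.75 for Krt79 and -7.06 to 1.32 for Krt8, positive without tumour 1 in each but Krt10, which turned negative without tumour 2. Where these changes come from the library left out, the values of each tumour in the report show it; otherwise the cause was not tested. Measured in implied fragments, simple epithelial keratins held 89.6% and 89.3% of the keratin sum in the normal prostates and 92.8% in tumour 2, and Krt8 over Krt18 was 0.541, 0.486 and 2.33, a shift that dropping the division by transcript length gives. As deposited, 4 keratins were at least 4-fold higher in tumour 2 than the normal mean (18.4% of all genes tested) and 0 lower (1.91%). With the sum scaling 0 were lower (2.55% of all genes tested). Depth limits the low members: 0 fragments in tumour 1 allow up to 3, and Krt14, Krt17, Krt79 and Krt10 rest on few. No paired analysis was possible, because the normal prostates were WT and the tumours carried the transgene, so no mouse gave both.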
